A study of Mus musculus with 6 samples.

Results

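Interferon-stimulated genes were followed in mouse T cells driven toward the Th17 state, with and without the gene for IL-17A. A list of 40 such genes was looked up by gene name among 38483 genes. A total of 39 were found by name, and their transcripts were summed per gene. Ifit3b carries an older symbol, I830012O16Rik (ENSMUSG00000062488), and was read through its gene ID. It held 12 counts in wild-type 1, 2 and 4 counts in knockouts 1 and 2, and 0 in the other 3 libraries, and it enters no count of members here. Of the 39, 37 passed the filter on low counts and were tested. Rsad2 and Ifi44 did not pass it.

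All 6 samples came from splenic T cells isolated as CD4+CD62L+ from mice of the B10.RIII background. Wild-type samples (IL-17A+/+) and knockout samples (IL-17A-/-) numbered 3 each. The medium of both genotypes held 10 ng/ml of IL-6, 10 ng/ml of IL-23 and 1 ng/ml of TGF-β over 3 days. It also held 10 µg/ml of an anti-IFN-γ and 10 µg/ml of an anti-IL-4 antibody, so both antibodies were present behind all values below. The labels give no age and no sex, no dose of an added interferon, and do not say whether a sample was 1 animal or a pool.

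Interferons are secreted proteins that cells release on sensing viruses or, for IFN-γ, on activation as T or NK cells. Type I interferons and IFN-γ bind their own receptors, whose JAK kinases phosphorylate STAT proteins. A complex that holds STAT2 and IRF9 binds the interferon-stimulated response element (ISRE), while STAT dimers bind the gamma-activated site (GAS). The genes switched on encode RNA sensors, antiviral enzymes, GTPases that act on intracellular pathogens, and regulators such as IRF7 and USP18 that extend or restrain the response. IFN-γ is also known to restrain Th17 differentiation, and Th17 cultures usually block it.

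Libraries held 47335736 to 49743762 estimated counts, and 14750 to 15302 genes had at least 10 counts. A count of 0 allows up to 3 counts, or 0.0586 to 0.0676 CPM (counts per 1000000, on scaled library sizes), which covers counting error only. Il17a was at 107.8 to 211 CPM across the wild-types, while knockouts 1, 2 and 3 had 1.11, 0 and 0.0202 CPM. Libraries with the same replicate number varied together across genes, so wild-type 1 and knockout 1 are called pair 1, and so on. Xist, the transcript of the inactive X chromosome of female cells, ranged from 566.5 to 663.3 CPM over the 3 wild-types and knockout 3, but knockouts 1 and 2 had 2.58 and 0 CPM. Those same knockouts had 44.4 and 38.0 CPM of Y-linked Ddx3y, which was 0.452 CPM or less elsewhere. Genotype and sex-linked transcripts therefore cannot be told apart in pairs 1 and 2.

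No member passed the test of genotype in edgeR's quasi-likelihood test, where 0% of the 15121 genes tested passed at an adjusted p under 0.05. With the replicate number as a block, edgeR again called no member and 0% of all genes, and the smallest adjusted p of a member was 0.387. DESeq2 with the same block called 1 member lower in the knockout, Samhd1, against 1.5% of all genes called lower, and called 0 of 37 higher, against 1.02% of all genes. At an unadjusted p under 0.05, edgeR without the block held 0 members higher (0.813% of all genes) and 1 lower, Samhd1 (0.86% of all genes).

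With the block in edgeR, 9 of 37 members (24.3%) were higher in the knockout at an unadjusted p under 0.05, against 4.42% of all genes. They were Xaf1, Gbp7, Gbp3, Rtp4, Herc6, Ifit2, Irgm1, Zbp1 and Parp9. Samhd1 and Usp18 were lower at that level (5.41%, against 5.3% of all genes). None of the 11 passed adjustment over all genes in edgeR. Leaving out pair 1, 2 or 3 left 6, 1 and 6 members higher at that level. For 36 of 37 members the ranges of the 2 genotypes overlapped. No member had every knockout library above every wild-type library (3.01% of all genes did), and only Samhd1 had every knockout library below (3.13% of all genes).

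The members ranged widely in level. Levels between genes are given per kilobase of transcript, as CPM per kb averaged over 6 libraries. Samhd1 was highest at 703, followed by Ifi27l2a at 302, Gbp2 at 227 and Igtp at 170. Bst2 and Irf1 came next, at 82.4 and 82.2 CPM per kb. At the other end, 12 members averaged under 1 CPM per kb, among them Mx1 at 0.170, Ifit1 at 0.288, Ifi44 at 0.0451 and Rsad2 at 0.0431. In CPM, 5 members averaged over 100, 16 between 10 and 100, 9 between 1 and 10 and 9 under 1. Rsad2, Ifi44, Mx1 and Ifit1 were at 1.27 CPM or less in all 6 cultures. Isg15 was at 1.72 CPM or more, Irf7 at 2.38 CPM or more and Usp18 at 10.3 CPM or more in all 6. Samhd1, Gbp2, Igtp and Irf1 were at 89.4 CPM or more in every one.

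**Figure D1:**
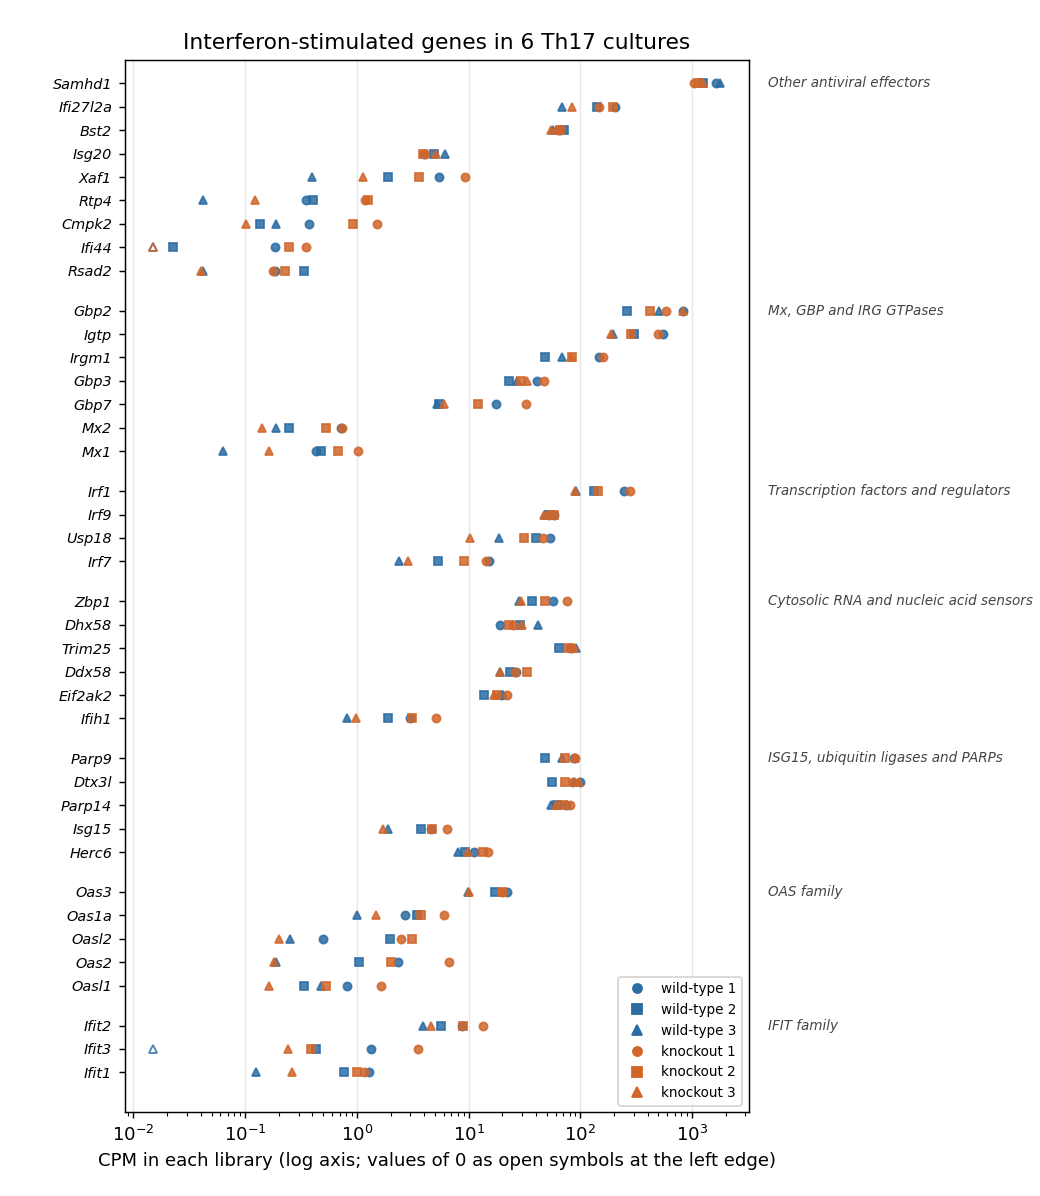
CPM of each of 39 interferon-stimulated genes in each of 6 libraries, on a log axis, grouped by role. Wild-type libraries are blue and knockout libraries orange, with circles, squares and triangles for replicates 1, 2 and 3. Samhd1 lies at 1037 CPM or higher in every library, while Rsad2 and Ifi44 lie under 1 CPM.

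Promoter sequences of some members show the elements that the interferon-activated factors are known to bind. RefSeq promoters (GRCm38.p6), from 250 bases before to 50 after a gene's start, were held for 30 of the 40 listed genes, Ifit3b included. The 250 bases before the start were searched on both strands for the ISRE core GAAANNGAAA and for the GAS core TTCNNNGAA. The ISRE core occurred in 13 of the 30, against 3.46% of all gene symbols with a promoter, and the GAS core in 9 of 30, against 8.13%. The 2 kinds of match overlapped each other in 1 member, Bst2. A match describes letters and is not a measured binding site. The stretches below come from members whose values are given in full, plus Ifit3, with capitals marking each ISRE core, read as TTTCNNTTTC where it lies on the other strand.
Isg15, chr4:156200840-156200919, minus strand: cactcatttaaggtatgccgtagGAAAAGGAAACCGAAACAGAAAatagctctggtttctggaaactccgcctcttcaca
Ifit1, chr19:34640769-34640848, plus strand: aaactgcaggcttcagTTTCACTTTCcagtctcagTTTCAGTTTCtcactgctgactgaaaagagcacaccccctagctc
Ifit3, chr19:34583372-34583451, plus strand: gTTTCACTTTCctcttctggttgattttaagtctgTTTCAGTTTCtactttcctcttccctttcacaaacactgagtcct
Gbp2, chr3:142620569-142620648, plus strand: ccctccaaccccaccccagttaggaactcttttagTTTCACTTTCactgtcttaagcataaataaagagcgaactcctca
Gbp3, chr3:142559964-142560043, plus strand: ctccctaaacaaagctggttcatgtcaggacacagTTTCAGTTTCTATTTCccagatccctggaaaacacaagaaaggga
Gbp7, chr3:142530248-142530327, plus strand: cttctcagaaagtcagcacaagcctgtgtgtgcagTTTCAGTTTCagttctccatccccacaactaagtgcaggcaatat
Igtp, chr11:58199476-58199555, plus strand: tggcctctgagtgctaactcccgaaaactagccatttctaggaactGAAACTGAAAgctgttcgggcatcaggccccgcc
Irgm1, chr11:48871421-48871500, minus strand: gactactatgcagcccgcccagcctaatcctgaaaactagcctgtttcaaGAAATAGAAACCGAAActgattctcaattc

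In these windows the nearest ISRE core began between 24 bases (Irgm1) and 122 bases (Ifit3) before the start. Isg15 held 3 overlapping cores in a row. Ifit1 and Ifit3 each held 2 separate cores, and the 80 bases shown for Ifit3 had 0 differences from the corresponding stretch of Ifit3b, its near-identical neighbour. Gbp2, Gbp3 and Gbp7 lie together on chromosome 3 and each held the core on the same strand. Reads of Ifit3 and Ifit3b may have been split between them by the authors' estimation. The levels behind these promoters were far apart: Gbp2 was at 227 CPM per kb and Ifit1 at 0.288, both with a match.

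Among regulators, Irf1 (ENSMUSG00000018899, chromosome 11, 53770014 to 53778374), a transcription factor induced by IFN-γ, was at 248, 133 and 92.0 CPM in wild-type 1, 2 and 3 and at 276, 144 and 89.4 CPM in knockout 1, 2 and 3. Both genotypes were high in number 1 and low in number 3, and the ranges overlapped almost wholly. The log2 change was 0.11 (SE 0.494, adjusted p 0.9999, edgeR). Irf7, the amplifier of type I interferon production, was at 15.1, 5.32 and 2.38 CPM in wild-type and 14.2, 9.08 and 2.87 CPM in knockout libraries, again high in number 1 and low in number 3. Irf7 overlaps Phrf1 on the opposite strand, which averaged 67.1 CPM, and whether the counting used strand is not given in the sources used here. Irf9, a DNA-binding partner of STAT2, was even, at 57.7, 52.7 and 48.0 CPM against 51.9, 58.5 and 47.0 CPM, with a log2 change of -0.01 (SE 0.141). It shares part of its locus with Rnf31 on the same strand.

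Usp18, which removes ISG15 from proteins and restrains the type I receptor, went the other way from most members. It was at 53.5, 40.4 and 18.6 CPM in wild-type 1, 2 and 3 and 46.5, 31.4 and 10.3 CPM in knockout 1, 2 and 3. Each knockout was below its same-number wild-type, with log2 ratios of -0.20, -0.36 and -0.82, while the genotypes' ranges overlapped. With the block, edgeR gave a log2 change of -0.47 (SE 0.145, unadjusted p 0.0202, adjusted p 0.438).

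Of 6 sensors of cytosolic nucleic acids, 5 had a log2 change above 0 and 1 below, and none passed the test. Zbp1, which senses Z-form nucleic acids and can start necroptosis, was at 57.1, 37.2 and 28.5 CPM in wild-type and 76.2, 47.9 and 29.5 CPM in knockout libraries. It was higher in the knockout in each pair, by log2 ratios of 0.41, 0.36 and 0.05 (adjusted p 0.503, edgeR with the block). Number 3 libraries were low in both genotypes. The RNA helicases Ddx58, Ifih1 and Dhx58, the kinase Eif2ak2 and the ubiquitin ligase Trim25 had log2 changes of -0.20 (Dhx58) to 0.70 (Ifih1). In sum the sensors held 169.8 to 205.5 CPM in wild-type and 183.2 to 238.7 CPM in knockout libraries.

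The OAS genes encode enzymes that make oligoadenylates to activate RNase L, with related OAS-like proteins beside them. All 5 had a log2 change above 0, from 0.02 (Oas3) to 1.33 (Oas2), and none passed. Oas2 was at 2.32, 1.04 and 0.188 CPM in wild-type and 6.70, 2.02 and 0.182 CPM in knockout libraries. Its difference lay in numbers 1 and 2, with log2 ratios of 1.35 and 0.72, and it was -0.01 in pair 3 (adjusted p 0.534, edgeR with the block). The IFIT genes encode proteins that bind foreign RNA ends. Ifit2 was at 8.80, 5.61 and 3.90 CPM in wild-type and 13.3, 8.83 and 4.63 CPM in knockout libraries. It was higher in each pair, with log2 ratios of 0.57, 0.61 and 0.22 (adjusted p 0.458, edgeR with the block). Ifit1 was at 1.27, 0.766 and 0.125 CPM against 1.15, 1.00 and 0.263 CPM, which showed no direction shared by the pairs. Ifit3 held no count in wild-type 3 and 3.50 CPM, its highest value, in knockout 1.

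Isg15, the ubiquitin-like protein that names the group, was at 4.62, 3.72 and 1.88 CPM in wild-type and 6.35, 4.66 and 1.72 CPM in knockout libraries, with 2 knockout values above and 1 below all wild-type values (log2 change 0.32, SE 0.553). Herc6, the mouse ligase that attaches ISG15, was at 11.1, 9.24 and 8.06 CPM in wild-type and 15.0, 13.3 and 9.87 CPM in knockout libraries. Only knockout 3 fell inside the wild-type range. The log2 ratios were 0.41, 0.51 and 0.28 (log2 change with the block 0.42, SE 0.134, unadjusted p 0.0230, adjusted p 0.442, edgeR). Parp9 and Dtx3l encode partners of 1 ubiquitin ligase complex and overlap on opposite strands, so their reads could be exchanged if strand was ignored. Parp9 was higher in the knockout in 3 of 3 pairs and Dtx3l in 2.

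The GTPases hold the most abundant members after Samhd1 and Ifi27l2a. Gbp2 (ENSMUSG00000028270, chromosome 3, 142620602 to 142638008), a guanylate-binding protein that acts on pathogen vacuoles, was at 822, 260 and 507 CPM in wild-type and 582, 422 and 835 CPM in knockout libraries. The pairs disagreed: the log2 ratio was -0.50 in pair 1 and 0.70 and 0.72 in pairs 2 and 3. Across all 3 pairs the change was 0.21 (SE 0.431, adjusted p 0.9999, edgeR). Without pair 1, DESeq2 with the block called it higher (0.71, adjusted p 2.73e-04), from a fit with few residual degrees of freedom. Gbp3 was at 41.1, 23.0 and 27.0 CPM in wild-type and 47.5, 29.6 and 33.4 CPM in knockout libraries, higher in each pair by log2 ratios of 0.21, 0.35 and 0.30 (adjusted p 0.429, edgeR with the block).

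Gbp7 varied more, at 17.8, 5.41 and 5.26 CPM in wild-type and 32.3, 12.1 and 6.01 CPM in knockout libraries. Knockout 1 was highest, and the log2 ratios were 0.85, 1.09 and 0.18 (log2 change with the block 0.74, SE 0.211, unadjusted p 0.0142, adjusted p 0.403, edgeR). Irgm1, which guides the other immunity-related GTPases to their membranes, was at 147, 48.5 and 67.9 CPM against 160, 84.4 and 82.5 CPM. It was higher in each pair, by log2 ratios of 0.13, 0.79 and 0.28 (adjusted p 0.502, edgeR with the block). Igtp, of the same family, was at 548, 299 and 195 CPM against 498, 283 and 188 CPM. Same-number libraries lay close together and the numbers far apart, with log2 ratios of -0.14, -0.08 and -0.05. Igtp overlaps Irgm2 on the same strand. Mx1, the GTPase against influenza-like viruses, was at 0.431, 0.473 and 0.0626 CPM in wild-type and 1.02, 0.675 and 0.162 CPM in knockout libraries, and the SE of its log2 change was as large as the change (0.93, SE 0.935).

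Samhd1 (ENSMUSG00000027639, chromosome 2, 157097533 to 157135265) encodes the enzyme that degrades dNTPs and limits retroviruses in non-dividing cells. Wild-type 1, 2 and 3 held 1631, 1256 and 1795 CPM, and knockout 1, 2 and 3 held 1037, 1136 and 1252 CPM. All 3 knockouts were below all 3 wild-types, although knockout 3 and wild-type 2 nearly touched. The means were 1561 ± 276.5 and 1142 ± 107.5 CPM (SD, n = 3 each). The log2 ratios within pairs were -0.65, -0.14 and -0.52. The log2 change was -0.45 (SE 0.172), with edgeR's unadjusted p 0.0347 and adjusted p 0.9999, and its adjusted p 0.434 with the block. DESeq2 with the block gave -0.45 (SE 0.135) and an adjusted p of 0.0367. That call was lost without pair 1 (adjusted p 0.660) or pair 3 (0.796) and held without pair 2 (3.91e-04).

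Samhd1 counts came mainly from 4 annotated transcripts, and the authors' assignment of reads to them is an estimate. The protein-coding transcript Samhd1-001 carried 37.1% of the counts and was at 602.5, 463.8 and 548.8 CPM in wild-type and 439.5, 491.4 and 453.4 CPM in knockout libraries, with overlap. The second protein-coding transcript, Samhd1-005, overlapped as well, at 364.5 ± 128.7 against 278.0 ± 77.0 CPM. Samhd1-003, annotated as subject to nonsense-mediated decay, carried 20.1% and did not overlap: it was at 311.5, 333.9 and 418.3 CPM in wild-type and 151.9, 256.9 and 168.1 CPM in knockout libraries. Its mean difference of -162.3 CPM was larger than the -76.9 CPM of Samhd1-001. No test was run on single transcripts.

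**Figure D2:**
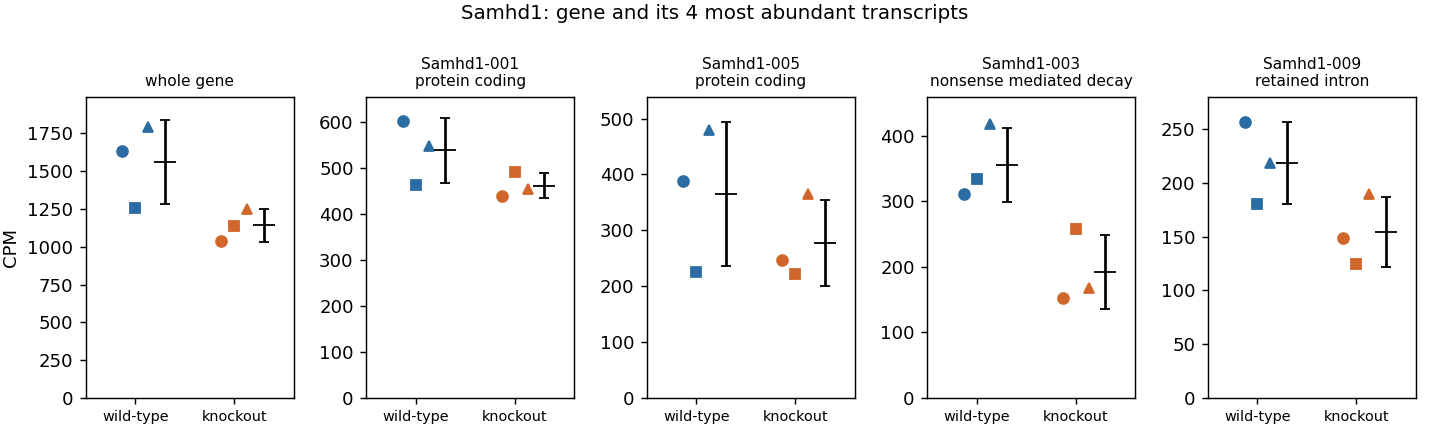
CPM of Samhd1 and of its 4 most abundant transcripts in each library, with the mean and SD of 3 libraries per genotype as black bars at the right of each group and circles, squares and triangles for replicates 1, 2 and 3. The whole gene and Samhd1-003 have every knockout library below every wild-type library, and the other 3 transcripts overlap.

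The remaining effectors went in no shared direction. Ifi27l2a, which encodes a small hydrophobic protein, was at 203, 140 and 68.7 CPM against 146, 196 and 83.9 CPM, with log2 ratios of -0.47, 0.49 and 0.29. Bst2 (tetherin), which holds budding viruses at the cell surface, was even, at 66.2, 71.5 and 57.3 CPM against 63.4, 65.1 and 54.3 CPM. The exonuclease gene Isg20 was at 3.96, 4.93 and 6.18 CPM against 4.04, 3.88 and 5.10 CPM, and unlike most members was highest in wild-type 3. Its log2 change was -0.21 (SE 0.286).

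Xaf1, a gene of interferon-induced cell death, had the smallest unadjusted p of the members in edgeR with the block. It was at 5.42, 1.89 and 0.397 CPM in wild-type and 9.22, 3.60 and 1.13 CPM in knockout libraries. The step between numbers was larger than the step between genotypes. The log2 ratios, from CPM + 0.5, were 0.72, 0.78 and 0.87. The added 0.5 shrinks the ratio most in pair 3, where wild-type 3 held 19 counts and knockout 3 held 56. These ratios therefore do not show that the change was equal across pairs. With the block the log2 change was 1.04 (SE 0.259, unadjusted p 0.00825, adjusted p 0.387, edgeR), and DESeq2 with the block gave an adjusted p of 0.0963. Rtp4 was at 0.349, 0.406 and 0.0418 CPM in wild-type and 1.17, 1.25 and 0.121 CPM in knockout libraries. It was higher in each pair and low in number 3, where wild-type 3 held 2 counts and knockout 3 held 6. The log2 change was 1.67 (SE 1.064) and, with the block, 1.64 (SE 0.519, unadjusted p 0.0212, adjusted p 0.439, edgeR). Rsad2 (viperin) was at 0.185, 0.338 and 0.0418 CPM against 0.176, 0.225 and 0.0405 CPM and was not tested. The other 15 tested members had log2 changes of -0.20 to 1.86, the highest in Cmpk2, a nucleotide kinase gene averaging 0.540 CPM.

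Within pairs, 13 of 37 members (35.1%) were higher in the knockout in all 3 pairs, against 16.6% of all genes. Samhd1, Igtp, Bst2 and Usp18 were lower in all 3, 10.8% of members against 16.7% of all genes. Above 0 in edgeR's log2 change were 30 of 37 members (81.1%), against 52.4% of all genes. The median log2 change of the members was 0.28, and that of all genes 0.01. By pair the members' median log2 ratio was 0.15, 0.36 and 0.05 in pairs 1, 2 and 3, against 0.02, 0.00 and -0.01 over all genes. Pair 3 had the smallest median, with 21 of 37 members higher in the knockout, against 25 in pair 1 and 30 in pair 2. Both libraries of pair 3 carried Xist, and they also had the lowest median levels of the members. Whether either bears on the ratios was not tested. Members under 1 CPM (7 tested) had a median log2 change of 0.93, and those above it 0.19. Without knockout 1 in edgeR without the block, the median over members was -0.08.

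**Figure D3:**
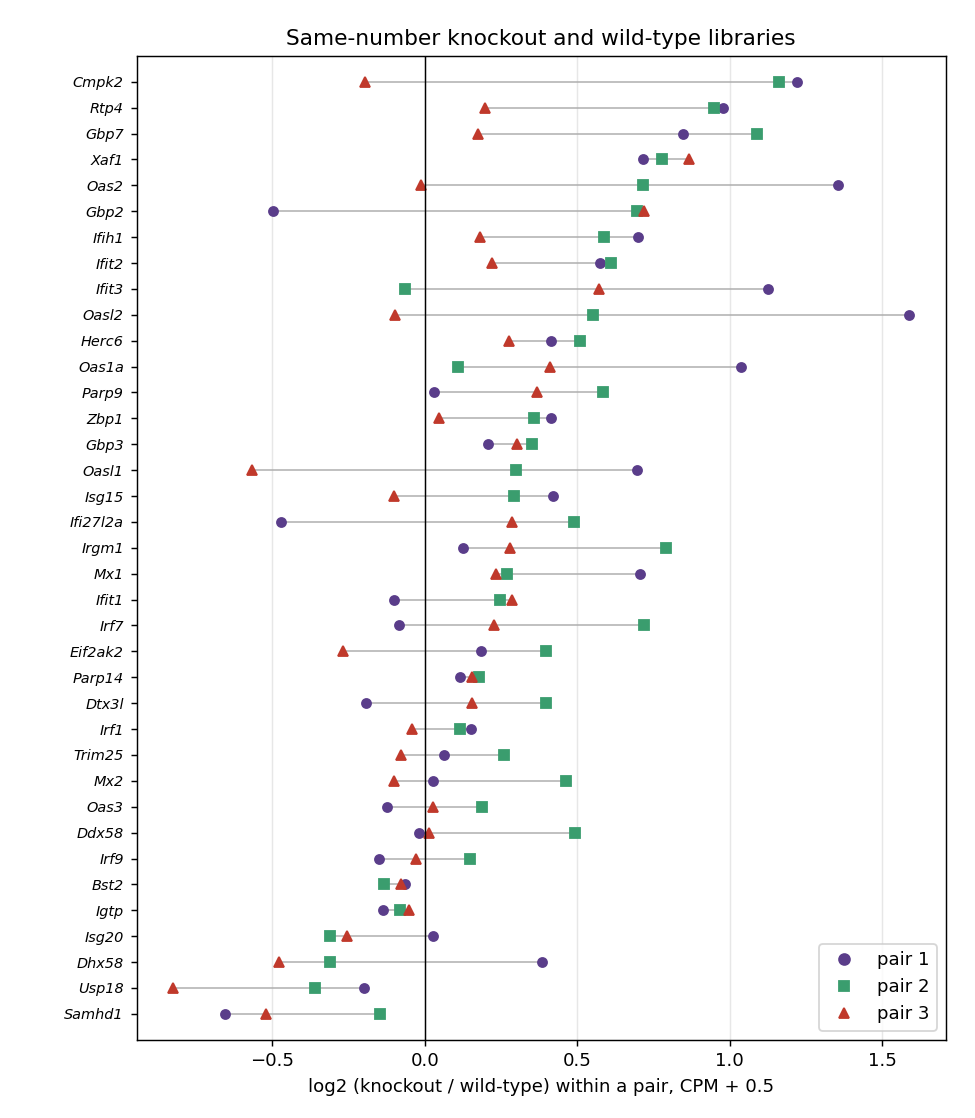
Log2 ratio of knockout to same-number wild-type, from CPM + 0.5, for each of 37 tested members, with pairs 1, 2 and 3 as circles, squares and triangles and a grey line over their range. Samhd1 and Usp18 lie left of 0 in all 3 pairs, while Xaf1, Gbp7, Ifit2, Herc6 and Gbp3 lie right of it.

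Most members were high in the libraries numbered 1 and low in those numbered 3, in both genotypes. The highest of the 6 libraries was numbered 1 for 27 of 37 members (73.0%), against 37.4% of all genes, and the lowest was numbered 3 for 27 (73.0%), against 35.5%. Knockout 1 was the highest library for 20 members and wild-type 1 for 7. Wild-type 3 was the lowest for 16 and knockout 3 for 11. Relative to each gene's own mean, on the scale of log2 CPM + 0.5, the median member stood at 0.33, -0.16 and -0.59 in wild-type 1, 2 and 3 and at 0.66, 0.16 and -0.55 in knockout 1, 2 and 3. The same medians over all genes were -0.02 to 0.02. The OAS genes had a wide spread, from -1.05 in wild-type 3 to 0.99 in knockout 1, and the sensors a narrow one, from -0.22 in knockout 3 to 0.19 in knockout 1. What sets the numbers apart is not given in the labels.

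**Figure D4:**
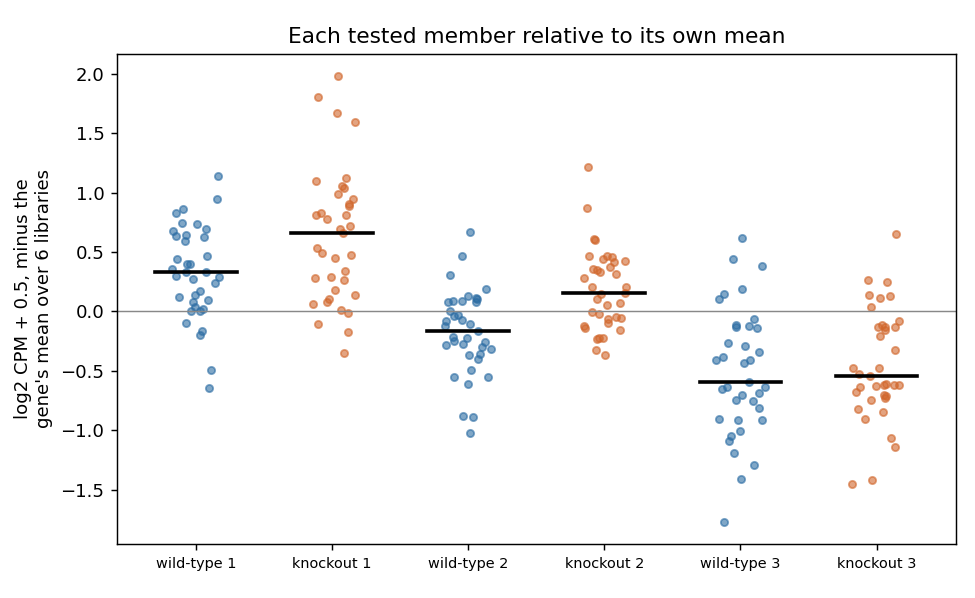
Log2 of CPM + 0.5 of each of 37 tested members minus the gene's mean over 6 libraries, by library, with black lines at the medians. The medians are highest in number 1 and lowest in number 3 libraries of both genotypes, at 0.33, -0.16 and -0.59 in wild-type and 0.66, 0.16 and -0.55 in knockout libraries.

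Upstream of these genes, type I interferon transcripts were almost absent. Of 20 interferon ligand genes looked up, 18 were in the table, 9 of them with no count in any library, and only Ifng was abundant enough to be tested. Ifnb1, the gene of IFN-β, held 1 count, in wild-type 2. Ifng, the gene of IFN-γ, was at 60.0, 15.5 and 3.63 CPM in wild-type and 197, 17.4 and 7.02 CPM in knockout libraries. Like most members it was high in number 1 and low in number 3, with knockout 1 far above the rest. DESeq2 with the block called it higher in the knockout (log2 change 0.94, SE 0.265, adjusted p 0.0220), and edgeR with the block did not (adjusted p 0.434). The DESeq2 call was lost without pair 1 (adjusted p 0.9997) or pair 3 (0.145). An antibody to IFN-γ was in every culture, so the transcript does not show how much IFN-γ reached the cells.

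Transcripts of receptors and signalling proteins were abundant, except for the receptor chain Ifnlr1, which averaged 0.349 CPM. Of 10 tested genes for receptors, JAKs and STATs, 4 had a log2 change above 0 and 6 below, and none passed in edgeR or in DESeq2 with the block. Stat2 was at 119, 102 and 77.0 CPM against 128, 105 and 64.8 CPM. The type I receptor chain Ifnar1 was at 117, 94.2 and 77.3 CPM against 162, 92.9 and 66.7 CPM. The other chain, Ifnar2, was at 77.8, 76.5 and 71.1 CPM in wild-type and 66.3, 68.7 and 47.9 CPM in knockout libraries, without overlap (log2 change -0.30, SE 0.168, adjusted p 0.9999, edgeR). Ifngr1 was at 448, 368 and 319 CPM against 394, 350 and 267 CPM, and Ifngr2 at 53.6, 109 and 102 CPM against 46.9, 87.1 and 71.1 CPM. Both IFN-γ receptor chains were lower in the knockout in each pair, and neither passed the test.

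Of 12 genes listed as inhibitors of interferon signalling, 9 had a log2 change below 0. DESeq2 with the block called 1 lower, Cish (log2 change -0.38, adjusted p 0.0115), against 1.5% of all genes. Cish is a SOCS family gene induced through STAT5, and its action on interferon signalling was not tested. Of 14 tested sensing genes upstream of interferon, none was called by either fit. Over all genes tested, 52.4% had a log2 change above 0 and DESeq2 with the block called 1.02% higher. Of 15 further GBP and IRG GTPases, 12 had a log2 change above 0. DESeq2 with the block called 2 of them higher, Gvin1 (0.59, adjusted p 2.85e-04) and Iigp1 (0.69, adjusted p 0.0279). Of 46 further interferon-stimulated genes tested, 40 had a log2 change above 0, with a median of 0.26, and 1 was called higher, Slfn2, a gene of T cell quiescence (0.64, adjusted p 0.0159). edgeR called none of these, with or without the block. In DESeq2 with the block, the call of Gvin1 was lost without pair 3 (adjusted p 0.333) and that of Iigp1 without pair 1 (0.310) or pair 3 (0.895). Slfn2 lost its call without pair 2 (0.275) or pair 3 (0.625), and Cish without any one pair (0.0608 to 0.986).

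Markers of other cells also differed between libraries. The T cell markers summed to 1901 to 2368 CPM in wild-type and 1836 to 2203 CPM in knockout libraries, and Cd4 was at 523, 579 and 490 CPM against 246, 633 and 379 CPM. Of 5 T cell markers, 2 had a log2 change above 0 and 3 below. DESeq2 with the block called 1 lower, Cd5 (log2 change -0.56, adjusted p 0.00235), against 1.5% of all genes. Cd5 was at 344, 311 and 312 CPM against 193.5, 234 and 234 CPM, without overlap. The Th17 markers, Il17a among them, summed to 749.3 to 760.7 CPM against 764.1 to 1440 CPM. The 6 B cell markers summed to 206.1, 74.7 and 51.0 CPM in wild-type and 457.5, 184.2 and 54.9 CPM in knockout libraries. All 6 had a log2 change above 0, against 52.4% of all genes, and DESeq2 with the block called 3 of them higher, against 1.02% of all genes. The 7 myeloid markers found summed to 191.3, 231.3 and 72.1 CPM against 257.1, 368.2 and 117.1 CPM, with all 7 above 0 and 4 called higher. The 4 dendritic cell markers tested were also above 0, and none was called. edgeR called no marker of any list, with or without the block. Of 6 plasmacytoid dendritic cell markers, Siglech and Klk1 were at 0 in all 6 libraries.

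Of 6 CD8 T cell markers, 5 had a log2 change above 0, and DESeq2 with the block called 2 higher, Cd8a (adjusted p 7.02e-04) and Klrc1 (adjusted p 6.83e-06). Cd8a was at 257, 48.3 and 33.7 CPM in wild-type and 425, 62.3 and 66.0 CPM in knockout libraries. Eomes had log2 ratios of 0.35, -0.43 and -0.05 in pairs 1, 2 and 3. Cd8a, Cd8b1, Prf1 and Klrc1 were higher in the knockout in each pair. The list's sum, 863.4 to 1759 CPM against 1167 to 1438 CPM, came mostly from Gzma in every library but knockout 1, at 1138, 830.5 and 750.4 CPM against 422.4, 987.6 and 1245 CPM, and does not show this. The NK cell list shares Gzma and summed to 812.6 to 1355 CPM against 785.4 to 1369 CPM. Of its 6 markers, 4 were above 0 and 1 was called higher by DESeq2 with the block, Klrd1 (adjusted p 0.00426), while Ncr1 was at 0.286 CPM or less in all 6 libraries. All 39 members summed to 4384, 2723 and 3330.5 CPM against 3547, 2959 and 3151 CPM, lower in the knockout in pairs 1 and 3. Less the 3 most abundant in CPM (Samhd1, Gbp2 and Igtp, set apart after their values were seen), the other 36 summed to 1383, 907 and 833 CPM in wild-type and 1429, 1118 and 876 CPM in knockout libraries. The sum of the 36 was highest in knockout 1, lowest in wild-type 3, and higher in the knockout in each pair. The sum of all 39 was not, so this direction rests on leaving out those 3 genes. The B cell sum, Cd8a and Ifng had the same highest and lowest libraries, while the myeloid sum was highest in knockout 2. In bulk RNA, more cells of a type and more RNA per cell cannot be told apart. The part of other cells in the members' differences was not tested, nor that of sex.

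**Figure D5:**
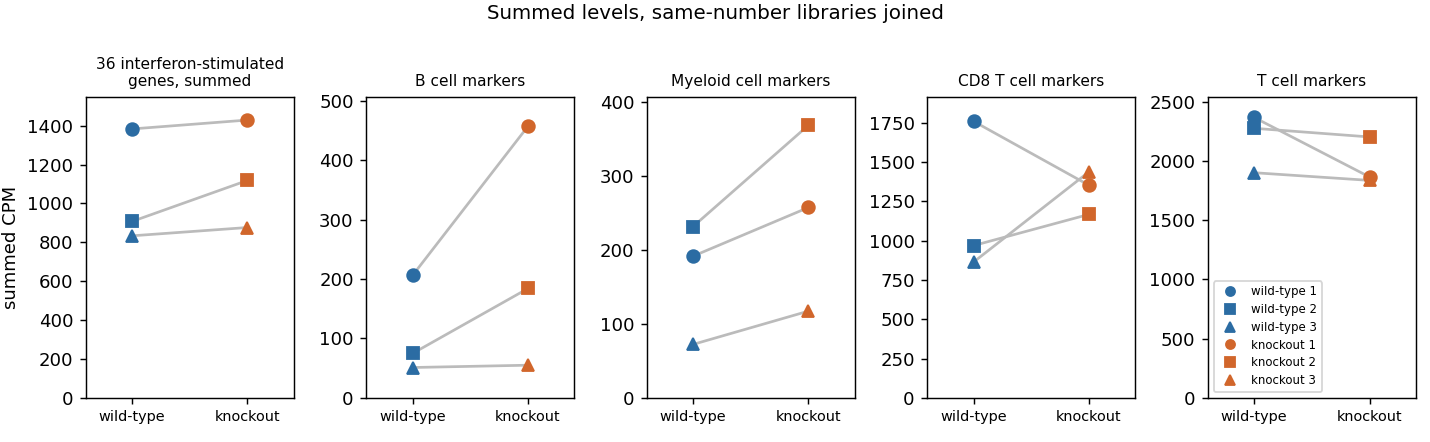
Summed CPM per library of 36 interferon-stimulated genes and of B cell, myeloid, CD8 T cell and T cell markers, with same-number libraries joined by grey lines. The 36 leave out Samhd1, Gbp2 and Igtp, which were set apart after their values were seen. The sums of the 36, of B cell and of myeloid markers are higher in the knockout in all 3 pairs. The sum of all 39 members, not drawn, is lower in the knockout in pairs 1 and 3 and higher in pair 2. The T cell sum is lower in all 3 pairs. The CD8 T cell sum holds Gzma, its most abundant gene in every library but knockout 1.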

How the data were processed

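Per the file headers, the deposited table lists 93480 transcripts with their lengths and, for 6 libraries, estimated counts. The submitters' processing notes name Bowtie2 2.1.0, eXpress 1.3.1 and the build GRCm38. The sources used here give neither counting settings nor annotation release. Libraries were stranded, per the labels' protocols.

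Estimated counts were summed per gene and rounded. Genotypes were compared by quasi-likelihood in edgeR 4.0.16, with filterByExpr, TMM scaling and Benjamini-Hochberg adjustment over 15121 genes, at a threshold of 0.05. DESeq2 1.42.0 (880 genes without an adjusted p in its paired fit), limma 3.58.1, other scalings, no filter and left-out libraries or pairs were alternatives, and paired DESeq2 fits without each pair were added after seeing the data. The edgeR, DESeq2 and limma fits on all libraries, each with and without the block, were tested on simulated data. The other scalings, the unfiltered fit and the fits with left-out libraries or pairs were not. R 4.3.3, Python 3.11.15, pandas 2.3.3 and matplotlib 3.10.9 were used. CPM used TMM-scaled library sizes, and the level per kilobase divided each transcript's CPM by its length. Log2 ratios used CPM + 0.5.

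The labels number replicates 1 to 3 in both genotypes without saying what a number marks. Same-number libraries deviated from their group means together (correlations of 0.602, 0.447 and 0.641 over genes), and the numbers were therefore read as pairs. The other combinations gave -0.465 to -0.174. Deviations from a group mean cancel within the group, so positive same-number values make the others negative on balance. The negative values are therefore no separate evidence for pairing. Where replicates are not separate animals, p-values measure only the spread between these samples.

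Members and lists were chosen with earlier results of these data known. Given in full were the 10 members with the smallest unadjusted p in edgeR with the block, the 6 highest per kilobase, the 3 lowest log2 changes, and Irf1, Irf7, Irf9, Isg15, Ifit1, Mx1, Oas2, Rsad2 and Gbp2. One gene of the signalling list is not reported here. Other members named were chosen after their values were seen.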

Additional observations from a re-analysis of the deposited data

How the results depend on the processing

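With the replicate block, edgeR again called 0 genes, while DESeq2 called 13 genes without and 381 with it. DESeq2 with the block called 1 member (Samhd1), and the other fits on all 6 libraries called 0. Members higher at an unadjusted p under 0.05 numbered 0 in the main test and, with the replicate block, 9 by edgeR, 8 by DESeq2 and 12 by limma-voom. Leaving out 1 library gave 0 to 1 genes called, 0 to 2 members higher and a median member log2 change of -0.078 (without knockout 1, the only negative one) to 0.598 (without wild-type 1). With the block and without pair 1, 2 or 3, DESeq2 called 176, 264 and 149 genes and 1, 1 and 0 members (Gbp2, then Samhd1), with 4, 2 and 4 members higher and a median of 0.117 without pair 2. edgeR called 8 genes without pair 1, with 6, 1 and 6 members higher.

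Leaving out 1 library turned the sign of these log2 changes, none of which passed edgeR's test. The ranges were -0.108 to 0.68 for Gbp2, -0.076 to 1.65 for Gbp7, -0.28 to 0.45 for Ifi27l2a, -0.35 to 0.85 for Ifit1, -0.57 to 0.38 for Igtp and -0.44 to 0.59 for Irf1. They were -0.35 to 1.18 for Irf7, -0.116 to 0.063 for Irf9, -0.080 to 0.90 for Irgm1, -0.10 to 0.67 for Isg15, -0.10 to 2.27 for Oas2 and -0.85 to 0.032 for Usp18. They were -0.12 to 2.02 for Xaf1, -0.091 to 0.64 for Zbp1, -0.28 to 0.38 for Ifnar1, -1.11 to 2.93 for Ifng, -1.18 to 2.38 for Iigp1 and -0.23 to 0.21 for Stat2.

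In paired fits without 1 pair, Ifi27l2a was at -0.094 and -0.112 (edgeR and DESeq2, without pair 2) and -0.008 and -0.001 (without pair 3). Without pair 1, edgeR, DESeq2 and the unpaired edgeR fit gave 0.062, 0.067 and 0.069 for Irf9, -0.115, -0.110 and -0.102 for Ifnar1, and -0.097, -0.093 and -0.070 for Stat2, which was at -0.072 and -0.092 without pair 2. On all libraries, Irf9 was at 0.001 under upper-quartile scaling. Stat2 was at -0.031 in edgeR with the block and in limma-voom, -0.032 in limma-voom with the block, -0.009 in DESeq2 and under RLE scaling, and -0.041 in DESeq2 with the block. The cause was not tested.

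Samhd1 kept its direction in every alternative run (-0.61 to -0.33 over left-out libraries and pairs). Members under 1 CPM rest on few counts, so smaller differences in them were not detectable at this depth.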
